A study of Mus musculus with 16 samples.

Results

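The genes that prime blood progenitors for the lymphoid fate were followed in single cells of mouse bone marrow, with and without chronic IL1β. They are 10 of the 27998 genes counted in each of 8 libraries, taken by symbol from a named list, and each symbol matched 1 row in every library. The list holds the receptors Flt3, Il7r and Notch1, the recombination enzymes Dntt, Rag1 and Rag2, and the transcription factors Ebf1, Satb1, Ikzf1 and Tcf3. Bone marrow depleted of lineage-positive (mature) cells, called Lin- here, came from 16 C57BL/6 mice of 6 to 12 weeks, 4 in each of 4 groups. WT mice carried Tet2fl/fl alleles without Cre, and Tet2-KO mice were Vav-Cre-Tet2-/-, in which Cre is driven in all blood cells by the Vav promoter. Because Vav-Cre was present in the knockout alone, an effect of Cre and the loss of Tet2 cannot be told apart. Mice of each genotype received 500 ng of IL1β per mouse and day by intraperitoneal injection for 5 weeks, or vehicle. Cells of 2 mice of 1 group were pooled in each library and told apart by hashtag antibodies, so that no library held 2 groups. Tet2 itself was at 36.4 to 46.2 UMIs per 1000000 in Tet2-KO and 31.0 to 46.9 in WT vehicle mice, but the library reads the 3′ end of a transcript, which may lie outside the deleted part, so this level checks no genotype.

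Lymphoid cells arise in the marrow from multipotent progenitors that first gain the receptor Flt3 and then begin to transcribe lymphoid genes while still able to make myeloid cells. Terminal deoxynucleotidyl transferase (Dntt) adds bases at antigen receptor joints, Rag1 and Rag2 together cut the DNA for that joining, and Il7r carries the IL7 signal on which early lymphoid cells depend. Notch1 directs progenitors to the T lineage, Tcf3 (the E proteins E12 and E47) and Ikzf1 (Ikaros) open the lymphoid programme, Satb1 organises chromatin in it, and Ebf1 commits cells to the B lineage.

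Counts are unique molecular identifiers (UMIs), and levels are UMIs per 1000000 (CPM). Levels of a gene in a gate, in all Lin- cells or in a fit are scaled by the UMIs of the genes tested and by TMM factors, while levels by cluster in the next paragraphs and summed marker levels are plain CPM of a mouse's cells, so the 2 kinds are not compared with each other. After filters on genes per cell and mitochondrial UMIs, 94917 of 121405 barcodes were kept, 57896 of them were given to 1 mouse by hashtag, 3938 were doublets and 33083 (34.85%) carried no hashtag call and were not counted for any mouse. Each mouse held 698 to 6432 cells and 4388604 to 44152768 UMIs. Any pair of libraries shared 11 to 57 kept barcodes, at most 0.512% of the smaller library. The share of cells with a Xist UMI was 96.56% in WT vehicle mouse 1 and 10.6% in mouse 2, and 21.52% in WT IL1β mouse 3 and 98.52% in mouse 4, so these 2 pools mixed the sexes and the hashtags did not part their mice completely, while the group of a cell does not depend on its hashtag and only the split between 2 mice of 1 group does. Lineage depletion was not complete, since 900 cells fell in a T, NK or innate lymphoid-like cluster and 1158 in a plasma cell-like one.

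The stretches of 250 bases before the starts of Dntt, Rag1 and Rag2 are shown because Dntt and Rag1 fell together in the marrow while Rag2, the neighbour of Rag1, was not called. The bases are from RefSeq on GRCm38.p6, 5′ to 3′ on the strand of the gene, and the capitals mark E-boxes (CANNTG, the same on both strands), the motif that E proteins such as Tcf3 bind. The windows are chr19:41029025-41029274 (plus strand) for Dntt, chr2:101649533-101649782 (minus strand) for Rag1 and chr2:101624462-101624711 (plus strand) for Rag2.
Dntt: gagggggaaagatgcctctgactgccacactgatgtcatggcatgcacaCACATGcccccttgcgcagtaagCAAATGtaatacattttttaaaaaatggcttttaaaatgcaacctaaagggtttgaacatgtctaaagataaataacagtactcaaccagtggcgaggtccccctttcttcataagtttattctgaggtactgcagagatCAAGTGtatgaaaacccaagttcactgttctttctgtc
Rag1: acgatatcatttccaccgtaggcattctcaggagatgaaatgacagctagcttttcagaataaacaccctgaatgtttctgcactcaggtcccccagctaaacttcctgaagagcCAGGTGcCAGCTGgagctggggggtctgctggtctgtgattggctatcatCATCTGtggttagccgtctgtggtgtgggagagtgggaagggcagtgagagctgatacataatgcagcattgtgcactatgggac
Rag2: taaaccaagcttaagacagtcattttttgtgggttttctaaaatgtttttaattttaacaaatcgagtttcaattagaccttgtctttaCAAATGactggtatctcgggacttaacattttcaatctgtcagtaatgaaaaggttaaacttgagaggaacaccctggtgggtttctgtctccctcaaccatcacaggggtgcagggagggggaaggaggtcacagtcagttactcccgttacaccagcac
Dntt and Rag1 each held 3 E-boxes and Rag2 held 1. Il7r, which was not called either, also held 3, and Ebf1, which fell, held 0 and 1 in its 2 windows. Of 32851 RefSeq promoters of the same length, 66.2% held at least 1 E-box, with a median of 1 per promoter. The share of promoters with 3 was not counted. The palindrome bound by Ebf1 was in 0.779% of promoters and in none of the windows of the 10 genes. TGGGAA, the core bound by Ikaros, was in 21.6% of promoters, in the window of Rag1 and in 1 alternative window each of Ebf1 and Satb1, which have several starts. All motifs were searched on both strands, and overlaps between motifs were not removed. A match or its absence describes these letters and says nothing of binding.

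The cells fell into 22 clusters, built from the WT vehicle cells without the 10 genes, so that the levels across clusters are a description. Gene coordinates below are those of the GENCODE vM21 annotation of GRCm38. Dntt, the enzyme of junctional diversity (chr19:41029275-41059525, plus strand), stood at 1721 ± 317.5 CPM (SD, n = 4 WT vehicle mice) in the lymphoid progenitor-like cluster 15, whose leading genes were Dntt, Ebf1, Ly6d and Cox6a2. It reached 161.3 ± 52.4 CPM in cluster 16, led by Hlf, Cd34 and Adgrl4, and 99.5 ± 68.0 CPM in the HSC-like cluster 3, and these 2 ranges overlapped. The marker lists gave clusters 1, 10 and 16 the same name, Flt3+ progenitor, which is not used here, and they go by number. Cluster 16 and the HSC-like cluster thus came next in order, far below the lymphoid progenitor-like one.

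Ebf1, Rag1 and Rag2 shared that top cluster, whose name rests in part on them. Ebf1 (chr11:44617317-45008091, plus strand) was at 361 ± 196.5 CPM there and at 33.9 ± 33.1 CPM in the plasma cell-like cluster, the next one. Rag1 (chr2:101638282-101649501, minus strand) was at 79.8 ± 61.2 CPM and Rag2 (chr2:101624718-101632529, plus strand) at 56.1 ± 18.7 CPM, with the next clusters at 3.01 and 6.26 CPM. Both RAG genes were thus close to 0 outside that cluster.

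The receptors were spread more widely. Il7r (chr15:9505788-9530176, minus strand) was at 223.1 ± 49.2 CPM in the lymphoid progenitor-like and at 162.6 ± 92.0 CPM (n = 3) in the T, NK or innate lymphoid-like cluster, which did not differ beyond their spread. Flt3 (chr5:147330741-147400489, minus strand) was at 264.4 ± 93.7 CPM in the former, then at 149.4 ± 40.9 CPM (n = 3) in the classical dendritic-like, 117.6 ± 23.8 CPM in the HSC-like and 96.6 ± 25.6 CPM in the plasmacytoid dendritic-like cluster, each range overlapping the next. Notch1 (chr2:26457903-26516663, minus strand) was at 206.1 ± 45.7 CPM in lymphoid progenitor-like cells and at 80.6 ± 19.3 CPM in plasmacytoid dendritic-like ones, and the ranges did not overlap.

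Among the transcription factors, Satb1 (chr17:51736187-51833290, minus strand) was at 420.8 ± 69.4 CPM in the lymphoid progenitor-like cluster and at 223.3 ± 102.1 CPM (n = 3) in the T, NK or innate lymphoid-like one, with overlapping ranges. Ikzf1 (chr11:11685003-11772926, plus strand) led there with 301.8 ± 29.1 CPM but was also at 169.5 CPM in the erythroid-like cluster 7. Tcf3 (chr10:80409514-80433647, minus strand) was at 126.7 ± 15.4 CPM in lymphoid progenitor-like and 126.7 ± 7.22 CPM in erythroid-like cells. The messenger RNA of Ikzf1 and Tcf3 was therefore not limited to lymphoid cells in this tissue.

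**Figure D1:**
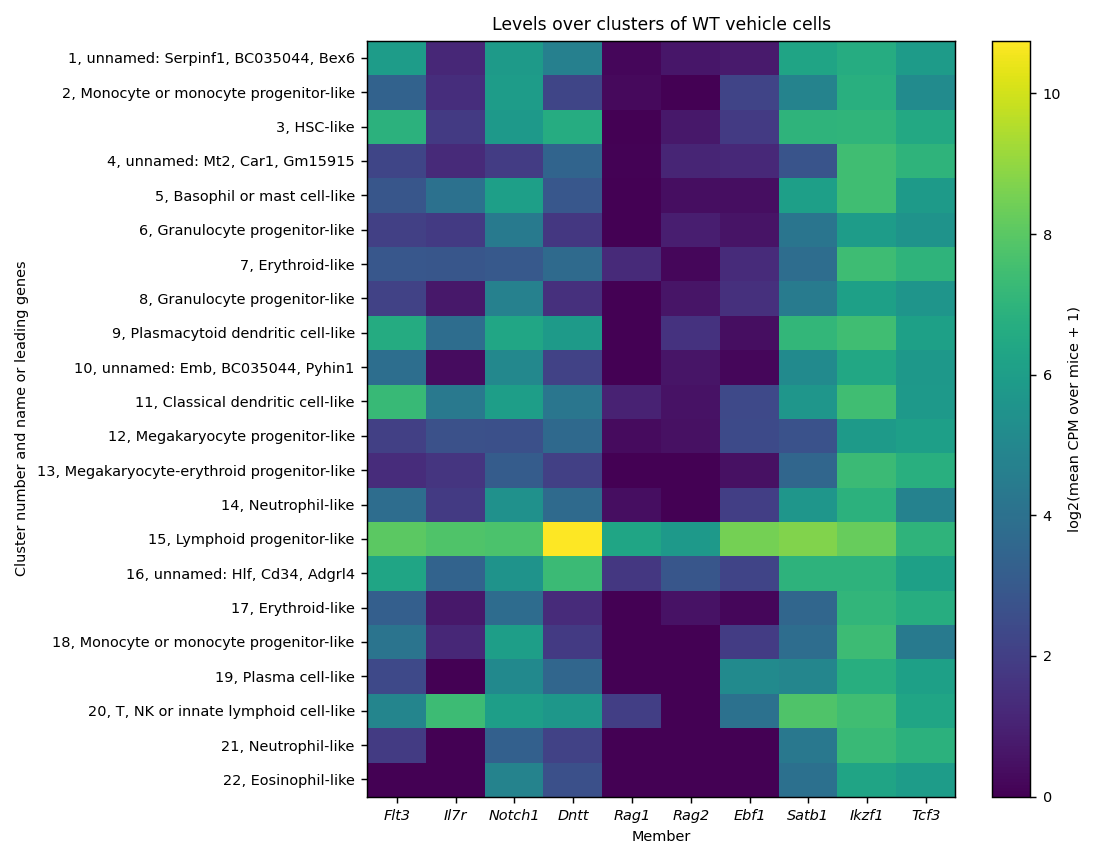
Mean level over WT vehicle mice of each of the 10 genes (columns) in each of 22 clusters (rows), as log2(CPM + 1), with clusters named from markers or by their leading genes. Cluster 15 is the brightest row for most genes, with Dntt at 1721 CPM, while the Ikzf1 and Tcf3 columns are bright in most rows.

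Over the 22 clusters, the pattern most like that of each gene among 8958 genes (Pearson r of log2 CPM, a description over clusters that share libraries) was held by Uchl1 for Dntt (0.88), Epb41l4b for Flt3 (0.92) and Thy1 for Il7r (0.91). Rag1 went with Tnni1 (0.94), followed by Pax5 (0.92) and Igll1 (0.89), which are B lineage genes. Ebf1 went with Blk (0.87), Vpreb3 (0.86) and Pax5 (0.85). Rag2 was nearest to Arpp21 (0.84), Notch1 to Rassf2 (0.95), Satb1 to Tbc1d10c (0.90), Ikzf1 to Ezr (0.79) and Tcf3 to Ktn1 (0.93).

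To follow priming before commitment, cells were gated on their UMIs. The HSC-like gate asked for at least 3 of 10 stem cell markers (Hlf, Mecom, Procr and others) and at most 1 of 15 genes of committed lineages, and held 871 cells, of which 74.86% were in the HSC-like cluster. The Flt3+ gate asked for Flt3 and Cd34, at most 1 of the same 15 genes and fewer than 3 stem cell markers. It left out the cells of the lymphoid progenitor gate and held 1713 cells. These were spread over the HSC-like cluster (28.31%) and clusters 1 (27.85%) and 16 (13.43%). The plasmacytoid dendritic-like cluster held 12.2% and the lymphoid progenitor-like cluster 7.0%. The lymphoid progenitor gate asked for Dntt and Il7r and held 270 cells, 85.56% of them in the lymphoid progenitor-like cluster. Among hashtagged cells with at most 1 committed gene, the threshold of 3 stem cell markers left 581 cells with exactly 3 inside and 1305 with exactly 2 outside.

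Detection was compared after thinning each cell to 2000 UMIs, with cells below that left out (10.0% to 25.0% of the HSC-like cells by group), and with the erythroid gate of 1674 cells, deeper at medians of 10150 to 12520 UMIs against 2446 to 3003, as the background. In HSC-like cells of WT vehicle mice Dntt was detected in 14.7% of cells (exact 95% interval 10.0 to 20.6, counting error only) and Flt3 in 24.2% (18.3 to 30.9). With IL1β these shares were 5.0% (1.86 to 10.6) and 11.7% (6.53 to 18.8) in WT. They were 4.92% and 11.5% in Tet2-KO mice with vehicle, and 2.22% and 11.1% with IL1β. Unthinned, Dntt was in 16.0%, 4.38%, 4.96% and 3.6% of cells in the same order. The share over all cells of the group was highest in WT vehicle in both readings, but by mouse the thinned shares ran from 0% to 17.4% in WT vehicle, 3.45% to 12.5% in WT IL1β, 0% to 8.0% in Tet2-KO vehicle and 0% to 3.92% in Tet2-KO IL1β mice and overlapped. In erythroid cells Dntt was in at most 0.474% and Flt3 in at most 1.19% of thinned cells, below the share in each HSC-like group. For Dntt in Tet2-KO IL1β mice the intervals overlapped, at 2.22% (0.725 to 5.11) in HSC-like against 0.358% (0.00907 to 1.98) in erythroid cells.

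Satb1 was detected in 12.0% to 17.5% and Notch1 in 4.92% to 9.17% of thinned HSC-like cells over the groups, against at most 1.79% and 2.46% in the erythroid gate. Ikzf1 (18.03% to 23.6%) and Tcf3 (12.0% to 14.2%) were not above their erythroid shares of 21.3% to 36.2% and 18.7% to 28.7%. The recombinase and B lineage genes were near or at 0 in this gate. Rag1 was in 0 of 871 unthinned cells, which allows a share of cells with a UMI of up to 0.344% (3 counts), Rag2 in 1 cell, Il7r in 3 and Ebf1 in 2.

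In the Flt3+ gate Dntt was in 26.7% (22.6 to 31.1) of thinned WT vehicle cells, 11.2% (7.99 to 15.1) with IL1β, and 17.8% (14.5 to 21.5) and 10.1% (7.22 to 13.7) in Tet2-KO cells with vehicle and IL1β. These intervals count cells and not mice. By mouse the shares ran from 11.1% to 38.1% with vehicle and 5.13% to 13.9% with IL1β in WT, and from 13.3% to 20.5% and 7.51% to 20.8% in Tet2-KO, so the groups overlapped in both genotypes. The lowest WT vehicle share was 1 of 9 cells, in mouse 2, and the highest Tet2-KO IL1β share 5 of 24 cells, in mouse 1. Satb1 was in 38.4% of WT vehicle and 39.3% of WT IL1β cells, and in 28.6% and 36.6% of Tet2-KO cells. Notch1 was in 18.7% and 20.8% of WT and 14.9% and 15.6% of Tet2-KO cells. The genes of the next steps were rare, with Ebf1 in at most 1.23%, Rag1 in at most 0.913% and Il7r in at most 1.23% of cells, against at most 1.12%, 0.447% and 0.447% in the erythroid gate. Cells of the lymphoid progenitor gate, which asks for Dntt and Il7r, are left out of the Flt3+ gate. Its low Il7r share, and in part its Dntt share, are therefore set by the rule. In lymphoid progenitor cells of vehicle mice, Satb1 reached 58.6% and 65.7% (WT and Tet2-KO), Notch1 41.4% and 37.4%, Ebf1 27.3% and 25.3%, and Rag1 14.1% and 15.2%. The gate itself fixes the detection of Dntt and Il7r there.

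**Figure D2:**
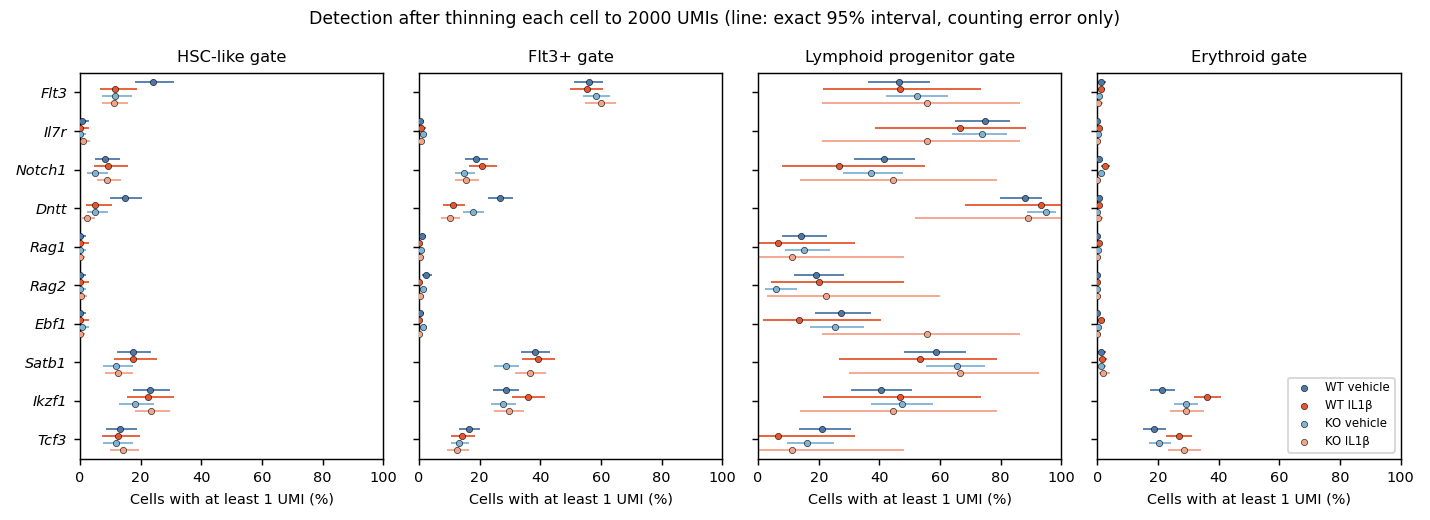
Share of cells with at least 1 UMI (horizontal axis, percent) of each gene in 4 gates after thinning to 2000 UMIs, with points for the 4 groups and lines for exact 95% intervals. In HSC-like cells Dntt and Flt3 are highest in WT vehicle mice (14.7% and 24.2%), and in the erythroid gate only Ikzf1 and Tcf3 are far from 0.

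Cells of the lymphoid progenitor gate were a smaller share of the marrow with IL1β in every mouse of both genotypes, by a difference that the design cannot call after adjustment. In WT they were 0.601%, 0.860%, 1.41% and 0.810% of the cells of the 4 vehicle mice and 0.124%, 0%, 0.0760% and 0.352% with IL1β. In Tet2-KO they were 0.664%, 0.397%, 1.24% and 0.734% with vehicle and 0.0701%, 0.156%, 0.0230% and 0.0220% with IL1β. Every IL1β mouse was below every vehicle mouse in both genotypes. The mean was 0.92 ± 0.345% with vehicle and 0.138 ± 0.152% with IL1β in WT (SD, n = 4 and 4; two-sided exact permutation p = 0.0286, the smallest that 4 against 4 mice allow, adjusted over 12 tests 0.171). In Tet2-KO the mean was 0.758 ± 0.351% with vehicle and 0.0678 ± 0.063% with IL1β (exact p = 0.0286, adjusted 0.171). Neither passed after adjustment, and the adjusted value cannot go lower with 2 of 12 tests at that limit.

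Since the gate asks for UMIs of Dntt and Il7r, a lower level of either would itself lower this share. The lymphoid progenitor-like cluster, built without the 10 genes, held 3.09 ± 1.08% of WT vehicle and 0.93 ± 0.929% of WT IL1β cells, and 2.32 ± 0.964% and 0.736 ± 0.489% of Tet2-KO cells (exact permutation p = 0.0571 in each genotype, adjusted 0.343), with an overlap of 1 IL1β mouse in each. Tet2-KO and WT mice were not told apart in the share of the gate with vehicle (difference -0.162 percentage points, exact p = 0.486) or with IL1β (-0.0702, exact p = 0.543). The HSC-like gate held 1.90 ± 0.91% of WT cells with vehicle and 0.931 ± 0.364% with IL1β (exact p = 0.114), and 1.55 ± 0.392% and 1.60 ± 0.559% of Tet2-KO cells (exact p = 0.971). The Flt3+ gate held 3.40 ± 1.32% and 2.20 ± 0.504% of WT cells (exact p = 0.171), and 3.30 ± 0.703% and 2.38 ± 1.03% of Tet2-KO cells (exact p = 0.229).

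**Figure D3:**
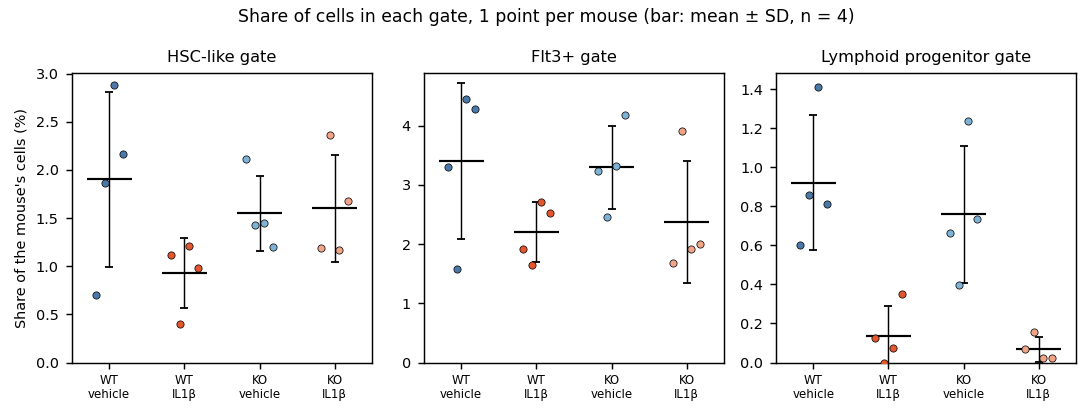
Share of each mouse's cells (vertical axis, percent) in the HSC-like, Flt3+ and lymphoid progenitor gates, with 1 point per mouse and bars for mean ± SD. In the lymphoid progenitor gate all 8 IL1β mice lie at or below 0.352%, under the lowest vehicle mouse at 0.397%.

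Summed over all Lin- cells, Dntt, Rag1 and Ebf1 fell with IL1β in both genotypes and Rag2 did not pass the test. Notch1 and Satb1 rose in Tet2-KO, and their rise in WT was not called. No gene of the list was called for a different IL1β effect in the 2 genotypes. Here fewer lymphoid cells and less RNA per cell cannot be told apart. Of the 10 genes, all tested with edgeR's quasi-likelihood test among 13146 genes, 3 fell and 0 rose at an adjusted p under 0.05 in WT, where 12.7% of all genes tested were called lower and 13.3% higher. In Tet2-KO 3 fell and 2 rose, against 16.1% lower and 15.6% higher of all genes. The median log2 fold change of the 10 was -0.39 in WT and -0.07 in Tet2-KO, beside 0.02 and 0.01 over all genes.

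Dntt was at 34.4, 36.7, 63.6 and 44.0 CPM in the WT vehicle mice and at 7.95, 3.57, 10.7 and 21.8 CPM with IL1β. In Tet2-KO it was at 31.7, 9.57, 40.2 and 34.9 CPM with vehicle and at 10.1, 10.5, 2.77 and 4.93 CPM with IL1β. The WT groups did not overlap, and Tet2-KO vehicle mouse 2 alone lay within the IL1β range. The log2 fold change was -2.08 (SE 0.56, edgeR adjusted p = 0.016) in WT and -2.08 (SE 0.56, adjusted p = 0.013) in Tet2-KO, and both stayed called with each of the 16 mice left out in turn. Without the cells of the lymphoid progenitor-like cluster, Dntt was still lower, by a log2 fold change of -1.57 (adjusted p = 0.0207) and -1.37 (adjusted p = 0.0328). With the 8 libraries in place of the mice, including the cells without a hashtag call, it was -1.80 and -1.86 but not called (adjusted p = 0.115 and 0.104).

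Rag1, the catalytic part of the recombinase, was read from few UMIs. It had 14, 9, 47 and 24 UMIs in the WT vehicle mice and 4, 3, 9 and 4 with IL1β, which makes 0.622 to 2.17 CPM and 0.0893 to 0.402 CPM. Tet2-KO vehicle mice had 32, 0, 54 and 35 UMIs and the IL1β mice 0, 9, 2 and 0. The groups were apart in WT and met at 0 in Tet2-KO vehicle mouse 2. The log2 fold change was -2.64 (SE 0.83, edgeR adjusted p = 0.0287) in WT and -3.53 (SE 0.86, adjusted p = 0.00648) in Tet2-KO, called in 11 and 16 of the 16 fits that leave out a mouse. In WT the call was lost without vehicle mouse 2 or 3 or without IL1β mouse 1, 2 or 3 (adjusted p up to 0.0908).

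Ebf1, the B lineage factor, was at 4.84, 9.66, 9.14 and 5.11 CPM in WT vehicle mice and at 1.94, 3.04, 1.27 and 3.32 CPM with IL1β. Tet2-KO mice had 5.24, 1.06, 5.57 and 3.96 CPM with vehicle and 1.33, 2.34, 0.261 and 0.676 CPM with IL1β. The WT groups were apart, and Tet2-KO vehicle mouse 2 was again within the IL1β range. For Ebf1 the log2 fold change was -1.61 (SE 0.56, edgeR adjusted p = 0.0462) and -1.82 (SE 0.57, adjusted p = 0.0241). The WT call stood in 3 of 16 fits with a mouse left out (adjusted p up to 0.123) and was lost without any one of the 8 WT mice, of KO vehicle mice 1, 3 and 4 or of KO IL1β mice 1 and 4. The Tet2-KO call stood in 11 (adjusted p up to 0.0725) and was lost without vehicle mouse 1, 3 or 4 or IL1β mouse 3 or 4. Without the lymphoid progenitor-like cluster Ebf1 was not called, at -0.09 in WT and -0.40 in Tet2-KO (edgeR adjusted p = 0.912 and 0.533), and Rag1 was too low to test.

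Notch1, the receptor of the T lineage choice, was at 32.0, 24.6, 29.2 and 26.2 CPM in Tet2-KO vehicle mice and at 39.5, 38.5, 36.8 and 33.9 CPM with IL1β, with no overlap. It rose by 0.41 on the log2 scale (SE 0.13, edgeR adjusted p = 0.0248), and in WT its log2 fold change was 0.32 (SE 0.13, adjusted p = 0.0798). Satb1 was at 45.7, 33.9, 39.8 and 40.8 CPM in Tet2-KO vehicle mice and at 62.2, 64.5, 48.9 and 44.5 CPM with IL1β. Only IL1β mouse 4 lay below the highest vehicle mouse. Its log2 fold change was 0.45 (SE 0.14, adjusted p = 0.0223), and 0.29 (SE 0.14, adjusted p = 0.146) in WT. In WT both were called without vehicle mouse 3, at an adjusted p of 0.0141 for Notch1 and 0.047 for Satb1. In Tet2-KO each call stood in 12 of the 16 fits with a mouse left out, at an adjusted p of up to 0.0681 for Notch1, lost without vehicle mouse 2 or 4 or IL1β mouse 1 or 2, and of up to 0.0722 for Satb1, lost without vehicle mouse 2 or 3 or IL1β mouse 1 or 2. Without the lymphoid progenitor-like cluster both were called in both genotypes, Notch1 at 0.44 (adjusted p = 0.0146) in WT and 0.49 (adjusted p = 0.00588) in Tet2-KO, and Satb1 at 0.46 (adjusted p = 0.013) and 0.61 (adjusted p = 0.00194).

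With pools as replicates or with another hashtag rule fewer genes were called in the summed marrow, among all genes as among the 10. With the 8 libraries as replicates and the cells without a hashtag call included, all 5 called genes kept their direction, but 0 of the 10 was called in WT and 1 in Tet2-KO, Notch1 at 0.58 (edgeR adjusted p = 0.0375), where 3.32% and 8.09% of all genes were called in place of 3409 and 4163 of 13146. With cells given to the mouse whose hashtag had at least 3 times the UMIs of the other, Dntt alone was called, at -2.08 (adjusted p = 0.0359) in WT and -2.11 (adjusted p = 0.035) in Tet2-KO, where 8.48% and 11.2% of all genes were called. Under that rule WT vehicle mouse 1 held 74 cells, Tet2-KO vehicle mouse 1 held 57 and Tet2-KO IL1β mouse 2 held 328. In the main fits these mice held 4159, 4214 and 4485 cells. The rule thus split several pools very differently, and the part of this split in the lost calls was not tested.

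The receptors Flt3 and Il7r did not pass in the summed marrow. Flt3 was at 15.2 to 33.7 CPM with vehicle and 19.5 to 24.3 CPM with IL1β in WT, and its log2 fold change was -0.37 (edgeR adjusted p = 0.232) in WT and -0.05 (adjusted p = 0.884) in Tet2-KO. Il7r was at 5.07 to 13.3 CPM and 2.43 to 15.1 CPM in WT, with -0.45 (adjusted p = 0.59) and -0.14 (adjusted p = 0.877). With a mouse left out the WT value of Il7r ran from -1.26 to -0.065, with a lowest edgeR adjusted p of 0.0617. Rag2, Ikzf1 and Tcf3 lay between -0.41 and 0.21, with a lowest adjusted p of 0.147. Rag2 was read from 9 to 42 UMIs in WT vehicle mice and 9 to 53 UMIs in WT IL1β mice. Of 108 Rag2 UMIs of WT vehicle mice 58 were in the lymphoid progenitor-like cluster, and of 117 with IL1β 10. In Tet2-KO it was 40 of 85 with vehicle and 3 of 96 with IL1β. The part of the other cells in the Rag2 result was not tested.

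**Figure D4:**
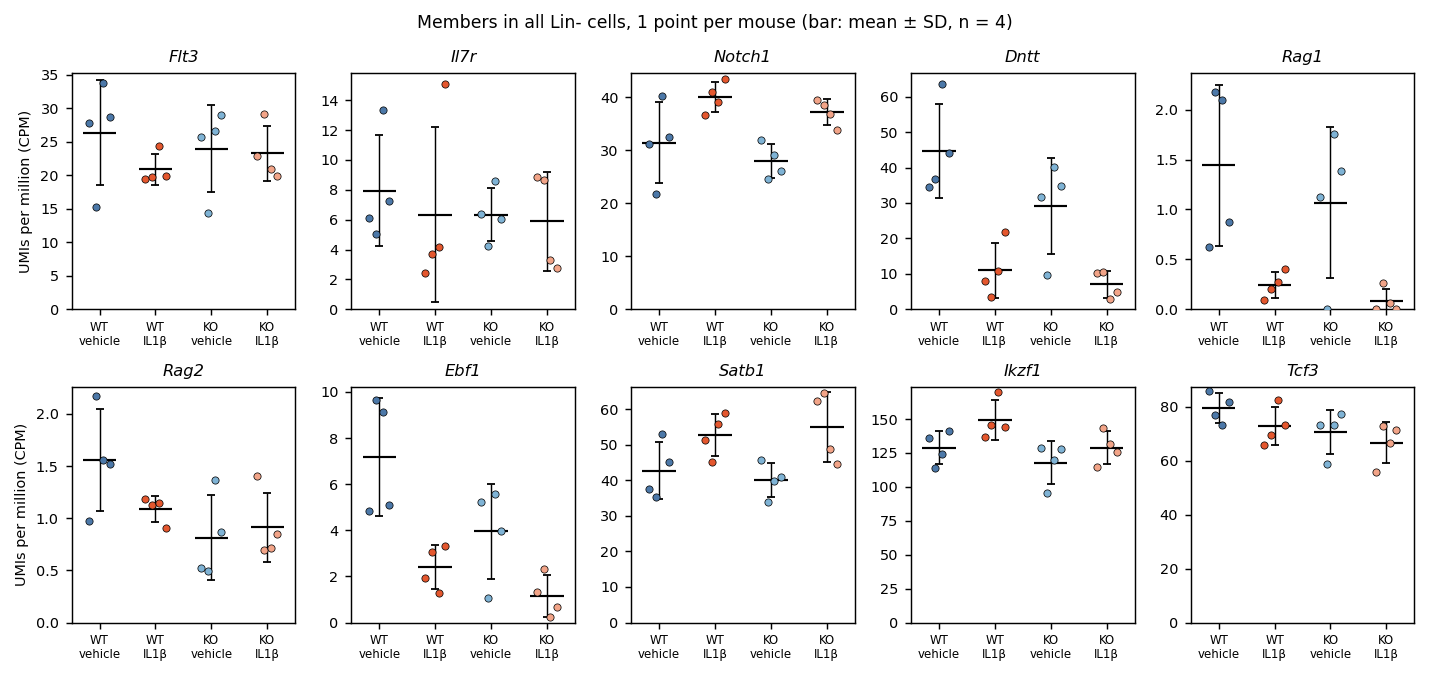
Level of each of the 10 genes in all Lin- cells (vertical axes, CPM, from 0) with 1 point per mouse, bars for mean ± SD and 4 mice in each of the 4 groups. Dntt, Rag1 and Ebf1 are lower with IL1β, with WT Dntt at 34.4 to 63.6 CPM against 3.57 to 21.8 CPM. With IL1β Notch1 and Satb1 are higher in Tet2-KO, and their WT means are higher too, without a call (Notch1 31.4 to 40.1 CPM, Satb1 42.7 to 52.7 CPM).

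In stem cell-like cells neither Flt3 nor Dntt passed the test with IL1β, although most WT vehicle mice stood above the WT IL1β mice for both. In the HSC-like gate, 5 of the 10 genes (Flt3, Dntt, Satb1, Ikzf1 and Tcf3) had enough UMIs to be tested among 3653 genes. With IL1β 0 of 5 were called in WT and 0 in Tet2-KO by edgeR, where 4.6% and 5.75% of all genes were called. At an unadjusted p under 0.05 there were 2 (Flt3 and Dntt) in WT and 0 in Tet2-KO, against 18.3% and 20.7% of all genes. DESeq2 called 0, but its own filter on low counts left Flt3, Dntt, Satb1 and Tcf3 without an adjusted p in these 2 comparisons.

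Flt3 was at 230.6, 76.2, 183.6 and 161.2 CPM in HSC-like cells of WT vehicle mice and at 75.6, 73.5, 106.7 and 77.0 CPM with IL1β. Tet2-KO mice had 81.5, 59.2, 90.5 and 70.6 CPM with vehicle and 10.8, 97.4, 131.3 and 71.2 CPM with IL1β. In WT, vehicle mouse 2 alone lay within the IL1β range, and in Tet2-KO all vehicle mice lay within the IL1β range. Flt3 had a log2 fold change of -0.97 (SE 0.33, edgeR adjusted p = 0.0804) in WT and 0.10 (SE 0.33, adjusted p = 0.908) in Tet2-KO. In WT it was called without WT vehicle mouse 2 (-1.07, adjusted p = 0.0473), without KO IL1β mouse 1 (-0.98, adjusted p = 0.0437), and with a looser gate of 2 markers (-0.81, adjusted p = 0.035). In the HSC-like cluster in place of the gate it was -0.29 (adjusted p = 0.312). Over the 16 fits that leave out a mouse the adjusted p ran from 0.0437 to 0.231.

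WT vehicle mouse 2 and KO IL1β mouse 1 also stood apart in megakaryocyte markers (Pf4, Itga2b and others), of which all 10 had UMIs in each group. Their sum in the HSC-like gate of WT was at 320.1, 18099, 1031 and 570.0 CPM with vehicle and 3327, 565.3, 2484 and 2015 CPM with IL1β, so that 3 of 4 IL1β mice lay above 3 of 4 vehicle mice. The megakaryocyte progenitor-like cluster held 0%, 30.8%, 3.19% and 2.41% of these cells with vehicle and 15.3%, 0%, 9.38% and 21.4% with IL1β. In Tet2-KO the sum was at 1066 to 1843 CPM with vehicle, and with IL1β at 15852 CPM in mouse 1 and 1183 to 1736 CPM in the other 3. WT vehicle mouse 2 and KO IL1β mouse 1 held 13 and 17 HSC-like cells. The part of these cells in the levels of Flt3 and Dntt was not tested beyond leaving out each mouse.

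Dntt was read from 0 to 39 UMIs per mouse in the HSC-like gate. It was at 115.3, 0, 146.1 and 140.6 CPM in WT vehicle mice and at 18.9, 36.7, 44.0 and 38.5 CPM with IL1β. In Tet2-KO it was at 65.2, 0, 18.1 and 7.8 CPM with vehicle and at 10.8, 94.4, 7.30 and 8.90 CPM with IL1β. In WT 3 of 4 vehicle mice were above all IL1β mice, and in Tet2-KO the groups overlapped. The log2 fold change was -1.92 (SE 0.86, edgeR adjusted p = 0.255) in WT. Over the 16 fits that leave out a mouse the adjusted p ran from 0.0307 to 0.472, and the call was made in 1 of them, without KO IL1β mouse 2. That mouse carried 32 of the 36 Dntt UMIs of its group. In Tet2-KO the log2 fold change was 0.40 (SE 0.89, adjusted p = 0.851) and turned to -1.71 without that mouse. Satb1, Ikzf1 and Tcf3 lay between -0.29 and 0.26 in both genotypes, with a lowest adjusted p of 0.723.

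In the Flt3+ gate the level of Flt3 is fixed in part by the rule and is given as a description, at 289.4 to 365.3 CPM and 263.1 to 359.3 CPM in WT with vehicle and IL1β, and 261.3 to 408.1 CPM and 307.1 to 333.5 CPM in Tet2-KO. Of the 5 other genes with enough UMIs (Dntt, Notch1, Satb1, Ikzf1 and Tcf3), 0 were called with IL1β in either genotype, where 5.84% of 7659 genes were called in WT and 10.8% in Tet2-KO by edgeR. At an unadjusted p under 0.05 there were 2 (Dntt and Tcf3) in WT and 1 (Dntt) in Tet2-KO, against 19.7% and 25.0% of all genes, and DESeq2 called 0.

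Dntt in Flt3+ cells was at 331.9, 62.0, 461.5 and 315.8 CPM in WT vehicle mice and at 111.7, 96.1, 159.2 and 213.7 CPM with IL1β. Tet2-KO mice had 298.4, 123.5, 285.5 and 221.0 CPM with vehicle and 288.2, 99.9, 86.4 and 100.9 CPM with IL1β. In WT 3 vehicle mice stood above all IL1β mice and vehicle mouse 2, with 3 Dntt UMIs in 11 cells, below them. In Tet2-KO 3 IL1β mice stood below all vehicle mice and IL1β mouse 1, with 24 cells, within their range. Dntt had a log2 fold change of -1.27 (SE 0.42, edgeR adjusted p = 0.111) in WT and -0.93 (SE 0.42, adjusted p = 0.199) in Tet2-KO. The lymphoid progenitor gate, whose cells are left out here, held 108 WT and 135 Tet2-KO cells with vehicle and 17 and 10 with IL1β. The part of this rule in the Dntt levels was not tested. With the 8 libraries as replicates, and the cells without a hashtag call included, the log2 fold change of Dntt was -1.33 (adjusted p = 2.4e-05) and -0.98 (adjusted p = 0.000562), both called, while over the 16 fits that leave out a mouse the adjusted p ran from 0.0573 to 0.289 in WT and from 0.0551 to 0.398 in Tet2-KO. Without the cells of the lymphoid progenitor-like and dendritic-like clusters the log2 fold change of Dntt was -0.57 and -0.70 (edgeR adjusted p = 0.644 and 0.492). That fit held 3 WT vehicle mice, since mouse 2 was left with 9 cells, so 2 things changed at once in WT.

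Tcf3 in Flt3+ cells was at 82.7 to 107.1 CPM in WT vehicle mice and 56.6 to 93.2 CPM with IL1β, with a log2 fold change of -0.46 (SE 0.20, edgeR adjusted p = 0.173), and of -0.16 (SE 0.19, adjusted p = 0.656) in Tet2-KO. Notch1, Satb1 and Ikzf1 lay between -0.19 and 0.05, with a lowest adjusted p of 0.585. Satb1 was at 158.6 to 285.2 CPM over all 16 mice.

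**Figure D5:**
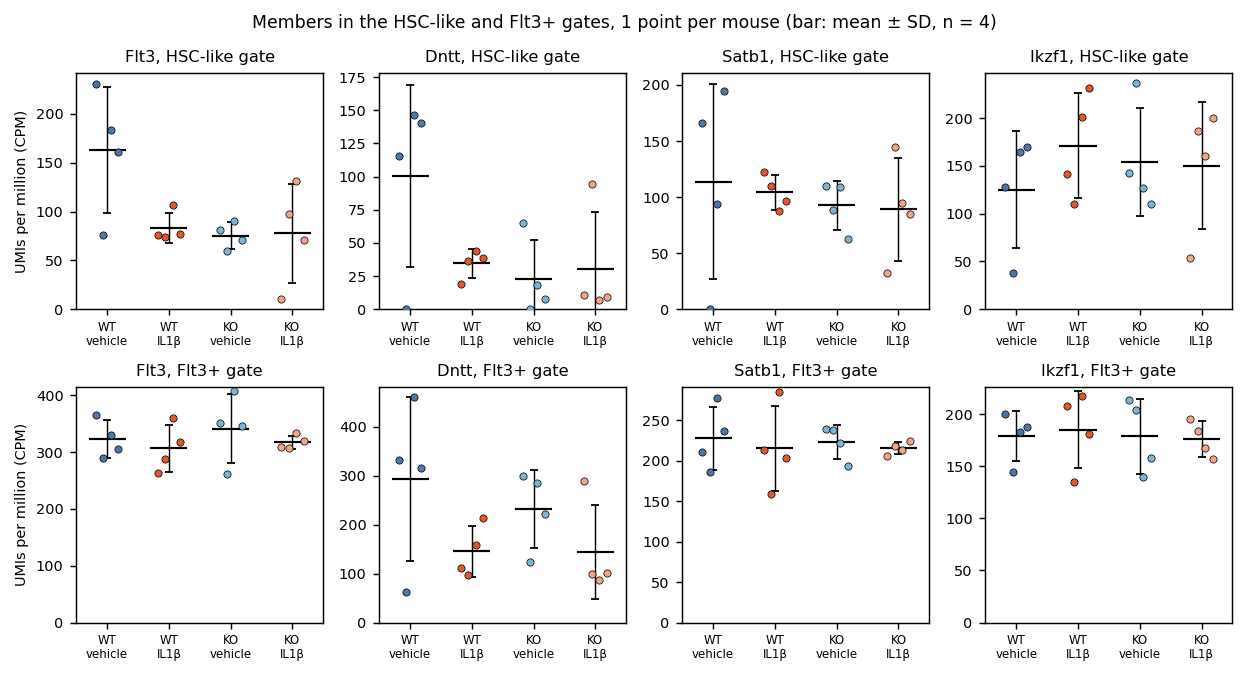
Levels of Flt3, Dntt, Satb1 and Ikzf1 (vertical axes, CPM, from 0) in the HSC-like gate (upper row) and the Flt3+ gate (lower row), with 1 point per mouse and bars for mean ± SD. WT Dntt in the Flt3+ gate reaches 461.5 CPM with vehicle and 213.7 CPM with IL1β, and the groups overlap through vehicle mouse 2, which held 11 such cells.

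After IL1β too few cells were left in the lymphoid progenitor gate to test IL1β there at 10 cells a mouse, since the 4 WT IL1β mice held 17 such cells in all and the 4 Tet2-KO IL1β mice 10. In 3 vehicle mice of each genotype, Dntt was at 2393 to 3478 CPM in WT and 3074 to 3903 CPM in Tet2-KO, and Il7r at 564.3 to 612.8 CPM and 617.1 to 862.4 CPM. The gate asks for both, so these values are a description. Ebf1 was at 304.6 to 749.0 CPM and 157.3 to 521.6 CPM, Satb1 at 574.6 to 609.1 CPM and 619.0 to 822.8 CPM, and Flt3 at 354.8 to 507.6 CPM and 398.6 to 447.7 CPM. Of the other 7 genes tested between the genotypes 0 were called by edgeR, also at an unadjusted p under 0.05, and 0% of 1895 genes tested were called (107 at an unadjusted p under 0.05).

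In the lymphoid progenitor-like cluster, where all 16 mice could be used, 0 of 8 genes tested were called with IL1β in either genotype, where 13.8% of 1614 genes were called in WT and 10.8% in Tet2-KO by edgeR. At an unadjusted p under 0.05 there were 2 (Il7r and Flt3) in WT and 1 (Il7r) in Tet2-KO, against 27.2% and 26.1% of all genes. On the scale of the fit, Dntt was at 151.6 to 2652 CPM in WT IL1β mice and 1869 to 2923 CPM in WT vehicle mice (log2 fold change -0.54, edgeR adjusted p = 0.613), and at 118.4 to 2504 CPM and 1208 to 2632 CPM in Tet2-KO (-0.48, adjusted p = 0.686). For Dntt 3 of 4 IL1β mice in WT and 2 of 4 in Tet2-KO lay below every vehicle mouse, the lowest of them with 4 and 3 UMIs. Il7r was at 437.1 to 625.1 CPM with IL1β and 232.4 to 384.5 CPM with vehicle in WT, with a log2 fold change of 0.77 (adjusted p = 0.118), and at 346.1 to 1578 CPM and 289.8 to 513.0 CPM in Tet2-KO (0.95, adjusted p = 0.0547). None of these passed.

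The genotypes were compared within each treatment. With vehicle, Tet2-KO against WT gave 0 of 5 genes called in HSC-like cells, where 0% of all genes were called, 0 of 5 in Flt3+ cells, Flt3 itself left out (0.0131% of all genes), and 0 of 10 in all Lin- cells (0.0152%) by edgeR. At an unadjusted p under 0.05 there were 2, 0 and 1 of them (of all genes, 145, 255 and 474), and DESeq2 called 0 of them in each. The 2 were Flt3 in HSC-like cells, with a log2 fold change of -1.11 (SE 0.31, adjusted p = 0.381), and Dntt (-1.91, SE 0.77, adjusted p = 0.999), and the 1 was Rag2 (-0.80, SE 0.33, adjusted p = 1). For Flt3 the 4 Tet2-KO mice, at 59.2 to 90.5 CPM, lay below 3 of the 4 WT mice.

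With IL1β, 0 of 5, 0 of 5 and 0 of 10 genes were called between the genotypes, against 0.0547%, 0.0392% and 0.0152% of all genes, and none had an unadjusted p under 0.05 (of all genes, 218, 519 and 1141). In a test of the interaction, that is of a different IL1β effect in the 2 genotypes, 0 genes of the list and 0% of all genes were called in HSC-like, Flt3+ and all Lin- cells by edgeR and by DESeq2. At an unadjusted p under 0.05 there were 122, 285 and 388 of all genes, and of the list only Flt3 in HSC-like cells, with a difference of 1.07 on the log2 scale (SE 0.47, adjusted p = 1). A difference between genotypes in the IL1β response of Flt3 thus did not pass the test.

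Other lymphoid genes and a myeloid contrast list were read from the same fits. In the Flt3+ gate 2 of 10 tested early lymphoid genes fell in WT and 0 rose, where 3.34% of all genes tested were called lower and 2.49% higher, with a median log2 fold change of -0.29 beside 0.04 for all genes. They were Cd48 (-0.85, edgeR adjusted p = 0.00349), an adhesion molecule shared by most blood cells, and Mef2c (-0.43, adjusted p = 0.0406), a factor of lymphoid and monocytic choice. In Tet2-KO 1 fell (Cd52, -0.60, adjusted p = 0.0353), and the lymphotoxin gene Ltb rose (2.27, adjusted p = 0.0372), where 6.36% of all genes were called lower and 4.43% higher, with a median of -0.11 beside 0.01.

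In Flt3+ cells the calls in the Ikaros family and in the myeloid list were all upward. Ikzf2 (Helios) was at 0 to 68.3 CPM in WT vehicle mice and 115.1 to 152.9 CPM with IL1β, and at 45.3 to 85.5 CPM and 133.8 to 172.8 CPM in Tet2-KO, apart in both. It rose by 1.27 (edgeR adjusted p = 2.6e-05) and 1.13 (adjusted p = 4.8e-05) on the log2 scale, and in HSC-like cells by 0.94 (adjusted p = 0.0477) in Tet2-KO. Of 2 family members tested in the Flt3+ gate 1 rose in WT and 2 in Tet2-KO, the second being Ikzf5 (1.09, adjusted p = 0.00508), against 2.49% and 4.43% of all genes called higher. Ikzf1 itself lay within the range above.

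Of 9 myeloid genes tested there, 3 rose in WT and 1 in Tet2-KO and 0 fell, against 2.49% and 4.43% of all genes called higher, with medians of 0.26 and 0.04. The Flt3+ gate allows UMIs of at most 1 of the listed genes of committed lineages. The level of any myeloid gene on that list is therefore bounded by the rule. The part of this rule in the myeloid results was not tested. Ms4a3, a marker of granulocyte and monocyte progenitors, was at 0 to 17.6 CPM in WT vehicle mice and 55.2 to 116.0 CPM with IL1β, a log2 fold change of 3.46 (edgeR adjusted p = 0.000638), and it rose by 1.40 (adjusted p = 0.0296) in Tet2-KO. Elane, neutrophil elastase, rose by 1.62 (adjusted p = 0.0143) and Mpo, myeloperoxidase, by 0.48 (adjusted p = 0.00752) in WT. The summed markers of monocytes in this gate were at 1438 to 2304 CPM with vehicle and 1902 to 2536 CPM with IL1β in WT, and at 1596 to 1922 CPM and 2030 to 3179 CPM in Tet2-KO, with 10 of 10 markers present, and their part in these results was not tested.

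The Notch pathway gave 1 gene of 3 higher in WT in the Flt3+ gate, Rbpj (0.67, edgeR adjusted p = 0.0345), the factor through which Notch receptors act, and 0 in Tet2-KO, beside the same 2.49% and 4.43% of all genes. Of the B lineage list 2 of 13 genes could be tested there, of IL7 receptor signalling 5 of 6 and of the E and Id proteins 3 of 5, and 0 of these was called in either genotype by edgeR. In the HSC-like gate Ikzf2 in Tet2-KO was the single call among the genes of all 7 lists that could be tested. These were 8 early lymphoid, 5 IL7 receptor signalling, 2 E and Id protein, 1 Ikaros family, 2 Notch pathway and 6 myeloid genes. Of all genes tested in that gate, 4.6% were called in WT and 5.75% in Tet2-KO.

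In all Lin- cells 3 of 13 B lineage genes fell in WT and 2 in Tet2-KO and 0 rose, where 12.7% and 16.1% of all genes were called lower, with medians of -0.37 in each. Pax5, which holds B cell identity, fell by a log2 fold change of -2.16 (edgeR adjusted p = 0.0273) and -1.91 (adjusted p = 0.0495), and Spib by -1.499 (adjusted p = 0.0119) and -1.95 (adjusted p = 0.00192), with Vpreb3 at -1.11 (adjusted p = 0.0387) in WT. Spib is also a gene of plasmacytoid dendritic cells. Of 13 early lymphoid genes, 1 fell in WT (Cd48, -0.77, adjusted p = 0.00434), and in Tet2-KO 4 fell, among them Cd48 (-0.84, adjusted p = 0.00177), Cnn3 (-0.77, adjusted p = 0.0168) and Cd52 (-0.61, adjusted p = 0.0202), and Ltb rose (1.10, adjusted p = 0.0193), beside the same shares of all genes, with medians of -0.24 and -0.38.

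Partners of the receptors were called in both directions in the summed marrow, where 13.3% of all genes were called higher and 12.7% lower in WT, and 15.6% and 16.1% in Tet2-KO. Of 6 genes of IL7 receptor signalling, Il2rg, the common chain that pairs with Il7r, rose by 0.54 (edgeR adjusted p = 0.0146) in WT and 0.65 (adjusted p = 0.00354) in Tet2-KO. Crlf2, the TSLP receptor chain that also pairs with Il7r, fell in WT (-0.31, adjusted p = 0.034) and Stat5b rose in Tet2-KO (0.35, adjusted p = 0.00902). Of 5 Notch pathway genes, Maml1 (0.59, adjusted p = 0.00368) and Rbpj (0.36, adjusted p = 0.0164) rose in WT and Maml1 in Tet2-KO (0.68, adjusted p = 0.000969).

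Among 5 E and Id protein genes over all Lin- cells Id2, an inhibitor of E proteins, rose in Tet2-KO (0.70, edgeR adjusted p = 0.0372) and 0 in WT. Of all genes there, 13.3% were called higher and 12.7% lower in WT, and 15.6% and 16.1% in Tet2-KO. Of 3 other Ikaros family genes, Ikzf2 (0.79 and 0.93, adjusted p = 0.00851 and 0.00263) and Ikzf5 (0.44 and 0.23, adjusted p = 0.00263 and 0.048) rose in both genotypes and Ikzf3 in Tet2-KO (1.46, adjusted p = 0.00838). Of 10 myeloid genes Cebpa rose in both (0.44 and 0.43, adjusted p = 0.00359 and 0.00288), and Irf8 (-1.10, adjusted p = 0.00676) and Csf1r (-0.69, adjusted p = 0.0101), genes of monocytes and dendritic cells, fell in Tet2-KO.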

How the data were processed

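Single-cell 3′ libraries of Lin- marrow from 16 mice, in 8 pools of 2, were read with hashtag counts. Per the labels the reads were processed with Cell Ranger 3.1.0 and Seurat 3.2.3 (submitters' processing notes) against mm10. The deposited values are unnormalized UMI counts per gene and cell, which the authors made before any filter used here. Each library held 11555 to 19573 barcodes and 56010493 to 99197115 UMIs.

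Cells with at least 750 genes and at most 10% mitochondrial UMIs were kept, and mice and doublets were called with HTODemux (Seurat 5.3.0). No caller of doublets within 1 hashtag was run, and leaving out the 5% of cells with the most UMIs in each library was an alternative. UMIs were summed per mouse and gate and tested with edgeR 4.0.16 (R 4.3.3; robust quasi-likelihood test, filterByExpr, TMM, 4 groups in 1 fit, mice with at least 10 cells), with Benjamini-Hochberg adjustment over all genes tested and a threshold of 0.05. Shares of cells were compared with two-sided exact permutation tests over all splits of the mice (numpy 2.4.6), adjusted over 12 tests. Detection shares carry exact (Clopper-Pearson) 95% intervals (scipy 1.17.1). Clusters (scikit-learn 1.9.0, leidenalg 0.10.2) used 11949 WT vehicle cells and 2000 variable genes without the 10 genes, and the other cells were placed by their 20 nearest reference cells. The fits were tested on simulated data.

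The 10 genes and the lists were chosen with earlier results of these data known. All 10 were named. From each of 7 lists (early lymphoid, B lineage, IL7 receptor signalling, E and Id proteins, Ikaros family, Notch pathway, and myeloid genes) up to 3 called genes in each direction with the smallest adjusted p were named, and for each of the 10 genes those most like it over clusters. The results of 1 gene of these lists are not reported here. The labels do not say whether the mice were litter mates. Except where pools were the replicates, p-values measure the spread between mice as called by hashtag. Mice of a group shared libraries, and the hashtags did not part the mice completely in the pools of mixed sex. In pools of a single sex Xist cannot show such mixing. The p-values may therefore understate the spread between the mice themselves, and by how much was not tested. Alternatives were DESeq2 1.42.0, other size factors, no filter, blocks by mouse or pool number, pools as replicates, another hashtag rule, stricter and looser gates, clusters in place of gates, the most deeply read cells left out, other thinning, and each mouse left out. Same-numbered mice did not deviate together, and the main fits carry no block. Promoters are from RefSeq on GRCm38.p6.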

Additional observations from a re-analysis of the deposited data

Results flagged for a closer look

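In 6 of 96 groups of 4 mice looked at, 1 mouse lay apart from the other 3 by Dixon's test (its gap to the next mouse, over the range, above the 95% critical value), a rate close to the 1 in 20 that chance gives. In all Lin- cells these were Flt3 in WT IL1β mouse 3, at 24.3 CPM, and Il7r in WT IL1β mouse 4, at 15.1 CPM. In the HSC-like gate they were Flt3 in WT IL1β mouse 3, at 106.7 CPM, and Dntt in Tet2-KO IL1β mouse 2, at 94.4 CPM. In the Flt3+ gate Dntt stood apart in Tet2-KO IL1β mouse 1, at 288.2 CPM, and Tet2-KO IL1β mouse 2 held the largest share of Flt3+ cells of its group, 3.90%.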

How the results depend on the processing

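With the 8 pools as replicates, 1 gene was called with IL1β in HSC-like cells of WT (Flt3, -1.07, edgeR adjusted p = 0.0216), 1 in Flt3+ cells of each genotype (Dntt), and 0 in WT and 1 in Tet2-KO over all Lin- cells. Leaving out the most deeply read 5% of cells, or the looser gate of 2 stem cell markers, also called 1 gene in HSC-like cells of WT (Flt3). Of all genes, 147 were called in HSC-like cells of WT with pools, 170 without the deepest cells and 501 with the looser gate. In Flt3+ cells with pools it was 352 in WT and 730 in Tet2-KO. Without the filter on low counts 1 gene, Ebf1, was called in HSC-like and in Flt3+ cells of Tet2-KO, from a handful of UMIs, beside 150 and 779 of all genes. The WT call of Ebf1 over all Lin- cells was lost there (edgeR adjusted p = 0.0852). The ratio rule for hashtags left 1 call in WT and 1 in Tet2-KO over all Lin- cells, and leaving out the lymphoid progenitor-like cluster, an alternative chosen after seeing the data like all those for all Lin- cells, left 3 in Tet2-KO. The log2 fold change of Dntt in HSC-like cells of Tet2-KO turned to -0.30 with pools, -1.55 with the ratio rule, -1.27 in the cluster and -0.92 with the looser gate, and its detection difference to 3.13 percentage points when thinned to 4000 UMIs. In Tet2-KO, Tcf3 in the cluster in place of the Flt3+ gate was 0.13, Flt3 over all Lin- cells was 0.054 with pools and 0.13 without the lymphoid cluster, and Il7r was 0.97 with the ratio rule and 0.43 without that cluster. Differences of shares (percentage points) that turned were, with the ratio rule, 0.292 with vehicle and -0.123 with IL1β for Tet2-KO against WT in the Flt3+ gate, and 0.0213 and 0.0603 in the lymphoid progenitor gate. The vehicle values with the ratio rule leave out WT vehicle mouse 1 and Tet2-KO vehicle mouse 1. That rule left these mice with only 74 and 57 cells. With pools, Tet2-KO against WT with vehicle was 0.0281, 0.265 and 0.0423 in the HSC-like, Flt3+ and lymphoid progenitor gates. The Flt3+ share with IL1β in Tet2-KO was 0.0119 with the stricter gate and 0.178 after thinning, and the HSC-like share was -0.00117 without the deepest cells. In the cluster in place of the gate, the HSC-like share changed by -1.13 with IL1β in Tet2-KO and differed by 1.77 between genotypes with vehicle, and the share of cluster 16, used in place of the Flt3+ gate, changed by 0.704 in WT and 0.763 in Tet2-KO and differed by -0.454 between genotypes with IL1β. In the fits the cluster in place of the Flt3+ gate was the one with most Flt3 among those named neither lymphoid progenitor nor dendritic, which was the HSC-like cluster, so these 2 fits hold the same cells, and cluster 16 was fitted as well, a choice made after seeing the data. The cause of these turns was not tested.

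Mice that share a number came from different pools and did not deviate together (median correlation -0.0152 in HSC-like, 0.00195 in Flt3+ and 0.0454 in all Lin- cells), so the number does not pair them. With the replicate block, 2 genes were called over all Lin- cells in WT and 5 in Tet2-KO, the lost call being Ebf1 in WT (-1.65, adjusted p = 0.0679), and of 37 results compared 36 kept their direction and side of the threshold. With the pool number as the block 3 and 5 were called, and no call changed. Of all genes over all Lin- cells, 3034 in WT and 3972 in Tet2-KO were called with the replicate block, and 3526 and 4435 with the pool block.

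Leaving out each mouse in turn gave 0 to 1 genes called in HSC-like cells of WT, 0 to 0 in HSC-like cells of Tet2-KO and in Flt3+ cells of both, 1 to 3 over all Lin- cells in WT and 3 to 5 in Tet2-KO, and 0 to 0 between genotypes or in the interaction. The number of all genes called ran from 56 to 204 and 48 to 249 in HSC-like cells (WT and Tet2-KO), 214 to 495 and 317 to 912 in Flt3+ cells, and 2222 to 3583 and 2990 to 4376 over all Lin- cells. It was 125 by DESeq2 in HSC-like cells of Tet2-KO against 210 by edgeR, and 275 and 404 in Flt3+ cells against 447 and 826. Over all Lin- cells it was 480 in WT and 1170 in Tet2-KO with pools, and 1115 and 1479 with the ratio rule, against 3409 and 4163. Without a mouse, log2 fold changes in Tet2-KO ran from -1.71 to 1.87 for Dntt and -0.12 to 0.29 for Flt3 in HSC-like cells, and from -0.21 to 0.056 for Flt3 and -0.41 to 0.12 for Il7r over all Lin- cells. Differences of shares that turned sign ran from -0.202 to 0.240 percentage points for IL1β in the HSC-like gate of Tet2-KO, from -0.710 to 0.246 with vehicle and -0.337 to 0.402 with IL1β for Tet2-KO against WT in the Flt3+ gate, and from -0.322 to 0.0015 and -0.116 to 0.00103 in the lymphoid progenitor gate. All other differences of shares with IL1β kept their direction without any one mouse.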

Other observations

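Dntt and Mpo, a lymphoid and a myeloid gene, were detected together in part of the Flt3+ cells. After thinning each cell to 2000 UMIs, the median share over mice of Dntt-positive cells that also held an Mpo UMI was 35.3% in WT with vehicle, 50% in WT with IL1β, 45.4% in Tet2-KO with vehicle and 66.5% in Tet2-KO with IL1β. Among the other Flt3+ cells Mpo was in 66.7%, 79.1%, 78.2% and 80.9% in the same order. Mpo was rarer in Dntt-positive than in other cells in all 8 WT mice and in 6 of 8 Tet2-KO mice, the exceptions being IL1β mice 2 and 4, with 13 and 8 Dntt-positive cells. Cells with Dntt and without Mpo made up a median of 12.0% of Flt3+ cells in WT with vehicle and 5.39% with IL1β, and 8.55% and 4.31% in Tet2-KO. These shares rest on 1 to 53 Dntt-positive cells per mouse and were not tested.

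In plain CPM, Dntt in cluster 16, led by Hlf, Cd34 and Adgrl4, was at 161.3 ± 52.4 in WT with vehicle, 54.7 ± 46.3 in WT with IL1β, 107.7 ± 42.9 in Tet2-KO with vehicle and 43.1 ± 46.5 in Tet2-KO with IL1β (SD, n = 4 each). In the HSC-like cluster it was at 99.5 ± 68.0, 73.4 ± 22.4, 71.5 ± 25.7 and 46.2 ± 34.7 in the same order, with overlapping ranges. In the fit of cluster 16 neither Dntt nor any other gene of the list was called with IL1β by edgeR. Of all genes, 1086 were called there in WT and 1689 in Tet2-KO.

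With a minimum of 5 cells per mouse in the lymphoid progenitor gate, 2 WT and 1 Tet2-KO mouse with IL1β were left. Ebf1 was then read from 6 UMIs in the 2 WT mice and 42 UMIs in the 1 Tet2-KO mouse. No test is given for so few cells and mice.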
